A study of Mus musculus with 8 samples.

Results

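The interferon regulatory factors Irf1, Irf2, Irf3, Irf4, Irf5, Irf7, Irf8 and Irf9 were followed in C2C12 cells, a mouse myoblast line, after silencing of the long non-coding RNA Pvt1. All spots whose gene name in the array design was a listed symbol were taken, control spots excluded, which gave 16 probes of 8 genes among 56605 probes. The cells were proliferating, at passage 10, and were transfected with Lipofectamine 2000. The silenced group of 4 cultures received LNA GapmeRs against Pvt1, oligonucleotides whose pairing leads RNase H to cut the RNA, and the control group of 4 cultures received negative control GapmeRs. Both groups therefore carried an oligonucleotide and the transfection reagent, and no culture without transfection was among the arrays. RNA of each culture was labelled with Cy3 and hybridised to a one-colour Agilent mouse array. Whether each silenced culture received both Pvt1 GapmeRs that the labels list is not stated there.

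Interferon regulatory factors are transcription factors that share a DNA-binding domain and recognise GAAA repeats in interferon-stimulated response elements. Irf3 and Irf7 are phosphorylated by Tbk1 and Ikbke after nucleic acid sensing and drive transcription of type I interferon genes, and Irf9 takes part with Stat2 in a complex that carries the interferon signal to the nucleus. Irf1 activates antigen presentation and antiviral genes, Irf2 often opposes it, Irf5 acts downstream of Toll-like receptors, and Irf4 and Irf8 are mainly known from lymphoid and myeloid cells.

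Positive and significant spots made up 58.8% to 62.5% of a control array and 51.6% to 61.0% of a silenced array, with silenced replicate 4 lowest. The brightest Pvt1 probe changed by -2.86 (SE 0.32, limma adjusted p 0.000682), silenced minus control on the log2 scale. Of 12 myoblast markers, 9 were well above background on all control arrays and 10 on all silenced arrays. Myod1 (change -1.95), Des (-1.35) and Cdh15 (-0.86) were nevertheless called lower after silencing. Of 24 leukocyte markers on the array, 12 were well above background on no array, among them Tyrobp, Ms4a1, Cd8a and Cd79a. Itgam, Ptprc, Cd14, Cd4, Cd3e and Cd68 were so on all 8 arrays, and Cd68 (change 1.84) and Coro1a (1.08) were called higher while Itgam (-1.08) and Csf1r (-1.12) were called lower. The median change over all 28649 tested probes was -0.19, so the zero of the scale was not the centre of the changes.

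Of the 16 interferon regulatory factor probes, 9 could be tested and 7 were well above background on no array. Irf7 rose after silencing, Irf3 fell at the probe at position 745 of its transcript, and Irf1 fell at the probe at position 651. Thus 1 of 9 tested probes (11.1%) was called higher, beside 4.79% of all tested probes, and 2 of 9 (22.2%) were called lower, beside 18.4% of all tested probes. The control and silenced arrays did not overlap for 3 of 9 probes (33.3%), beside 28.2% of all tested probes. The median change of the 9 probes was 0.34, and with arrays shifted to a common 75th percentile 5 probes were called higher and 2 lower, where 24.7% of all tested probes were called higher and 15.2% lower. All 3 calls are limma calls at an adjusted p under 0.05 over all tested probes, and 4 of the 9 probes had an unadjusted p under 0.05. Without silenced array 4 the same 3 probes were called. In that fit 13% of all tested probes were called higher and 18.1% lower, and their median change was -0.02.

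**Figure D1:**
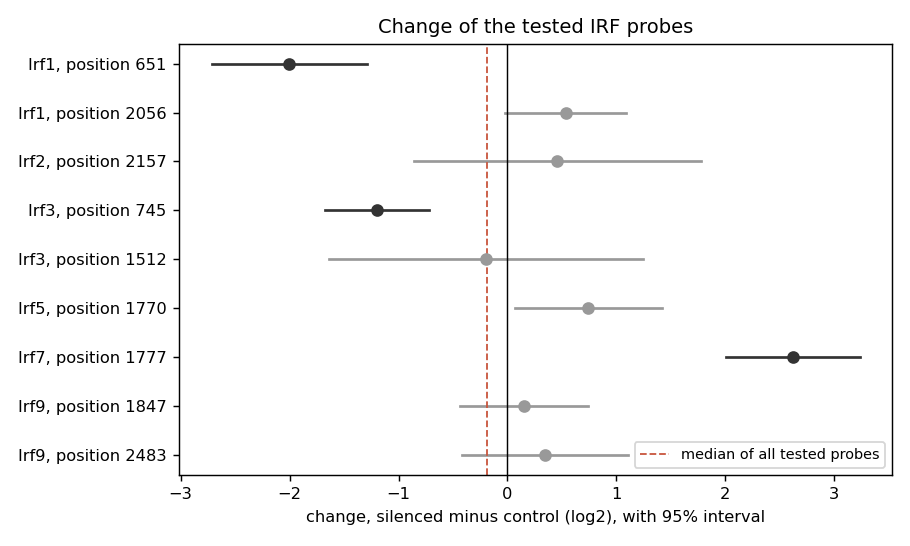
Change of each tested interferon regulatory factor probe, silenced minus control on the log2 scale, with its 95% interval. Dark points passed the test: Irf7 at 2.62 lies to the right of zero, and Irf1 at position 651 (-2.0) and Irf3 at position 745 (-1.20) lie to the left; the dashed line is the median of all tested probes, -0.19.

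Irf7, the inducible factor that amplifies type I interferon production, was the 1 member called higher. The probe at position 1777 of NM_016850 lies on the minus strand at chr7:148449104-148449163 of build mm9. Its log2 signal was 5.15, 5.21, 5.71 and 5.33 on control arrays 1 to 4 and 8.08, 7.95, 8.53 and 7.33 on silenced arrays 1 to 4. Every silenced array lay above every control array. The change was 2.62 (SE 0.27, 95% interval 2.01 to 3.24, limma adjusted p 0.000558), which is 2.82 above the median of all probes. This probe exceeded background clearly on 4 of 4 silenced arrays and on 0 of 4 control arrays, so on these values the signal was at least 3.79-fold higher in silenced cells. Within the upper row of the slide, which held control arrays 1 to 3 and silenced array 1, the difference was 2.73. Within the lower row, which held control array 4 and silenced arrays 2 to 4, it was 2.61. Group and slide row thus partly coincided. Background correction by normexp lowered the change to 1.34 (limma adjusted p 0.00078), a smaller fold than that bound, which therefore holds for the signal as scaled here and not under every background correction.

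A further Irf7 probe, at position 796 of the same transcript, spans 351 bases of genome at chr7:148450664-148451014 for its 60 bases of sequence, and therefore crosses a splice junction. It was well above background on silenced array 2 alone, where its log2 signal was 7.14, and was not tested. Without masking of dim spots it stood between 3.84 and 3.89 on the other 7 arrays. So the rise of Irf7 was measured by the probe at position 1777 and not by the probe at position 796. The 3 probes that lie at or below position 796 in the transcripts of Irf1, Irf3 and Irf7 are shown because another probe of the same gene gave another call or detection, as deposited and read 5′ to 3′ along the transcript.
Irf7 position 796: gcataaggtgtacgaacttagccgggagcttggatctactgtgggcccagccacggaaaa
Irf3 position 745: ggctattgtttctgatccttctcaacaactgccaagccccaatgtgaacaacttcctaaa
Irf1 position 651: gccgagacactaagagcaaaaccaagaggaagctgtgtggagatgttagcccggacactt

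Irf3, the constitutively present factor that starts the interferon response, differed in signal at the probe at position 745 of NM_016849, on the plus strand at chr7:52255810-52255869. Its log2 signal was 9.69, 9.78, 9.81 and 9.99 on control arrays and 8.84, 8.89, 8.50 and 8.22 on silenced arrays. The groups were separate, and all 8 arrays were well above background. The change was -1.20 (SE 0.21, 95% interval -1.68 to -0.72, limma adjusted p 0.00435), a level 2.30-fold lower in silenced cells, and -1.01 relative to the median of all probes. Within the slide rows the difference was -0.92 and -1.45, each resting on a single array of 1 group. Row differences were less alike at Irf3 position 1512 (0.39 and -0.28), Irf2 position 2157 (1.0 and -0.40) and Irf5 position 1770 (0.80 and 0.07).

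The other Irf3 probe, at position 1512 (chr7:52257700-52257759), was the brightest member probe. Its log2 signal was 11.92, 12.33, 12.62 and 12.11 on control arrays and 12.67, 12.91, 12.88 and 9.71 on silenced arrays. Silenced arrays 1 to 3 stood above every control array, while silenced array 4 stood below them all. The change was -0.20 (SE 0.65, limma adjusted p 0.857), and its sign turned with the scaling, to 0.29 at a common 75th percentile. Without silenced array 4 the change was 0.58 (limma adjusted p 0.0618), and without control array 3 as well it was 0.70 (limma adjusted p 0.012).

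Irf1, an activator of antigen presentation and antiviral genes, was read by probes at positions 651 and 2056 of NM_008390 on chromosome 11. The probe at 651 spans 146 bases at chr11:53587446-53587591 and crosses a splice junction. Its log2 signal was 6.13, 6.81, 6.06 and 6.86 on control arrays and 4.48, 5.22, 4.14 and 3.99 on silenced arrays, with no overlap. The change was -2.0 (SE 0.32, 95% interval -2.72 to -1.29, limma adjusted p 0.00271). Since 3 of 4 control arrays and 0 of 4 silenced arrays were well above background there, controls were higher by at least 1.23-fold, and under normexp the change was -0.60.

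The Irf1 probe at position 2056 (chr11:53590746-53590805) did not follow it. Its log2 signal was 11.28, 11.34, 12.06 and 11.50 on control arrays and 12.16, 12.09, 12.40 and 11.67 on silenced arrays, all well above background. The groups overlapped through control array 3 and silenced array 4. The change was 0.54 (SE 0.25, limma adjusted p 0.15), and it reached 0.93 (limma adjusted p 0.0141) at a common 75th percentile.

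**Figure D2:**
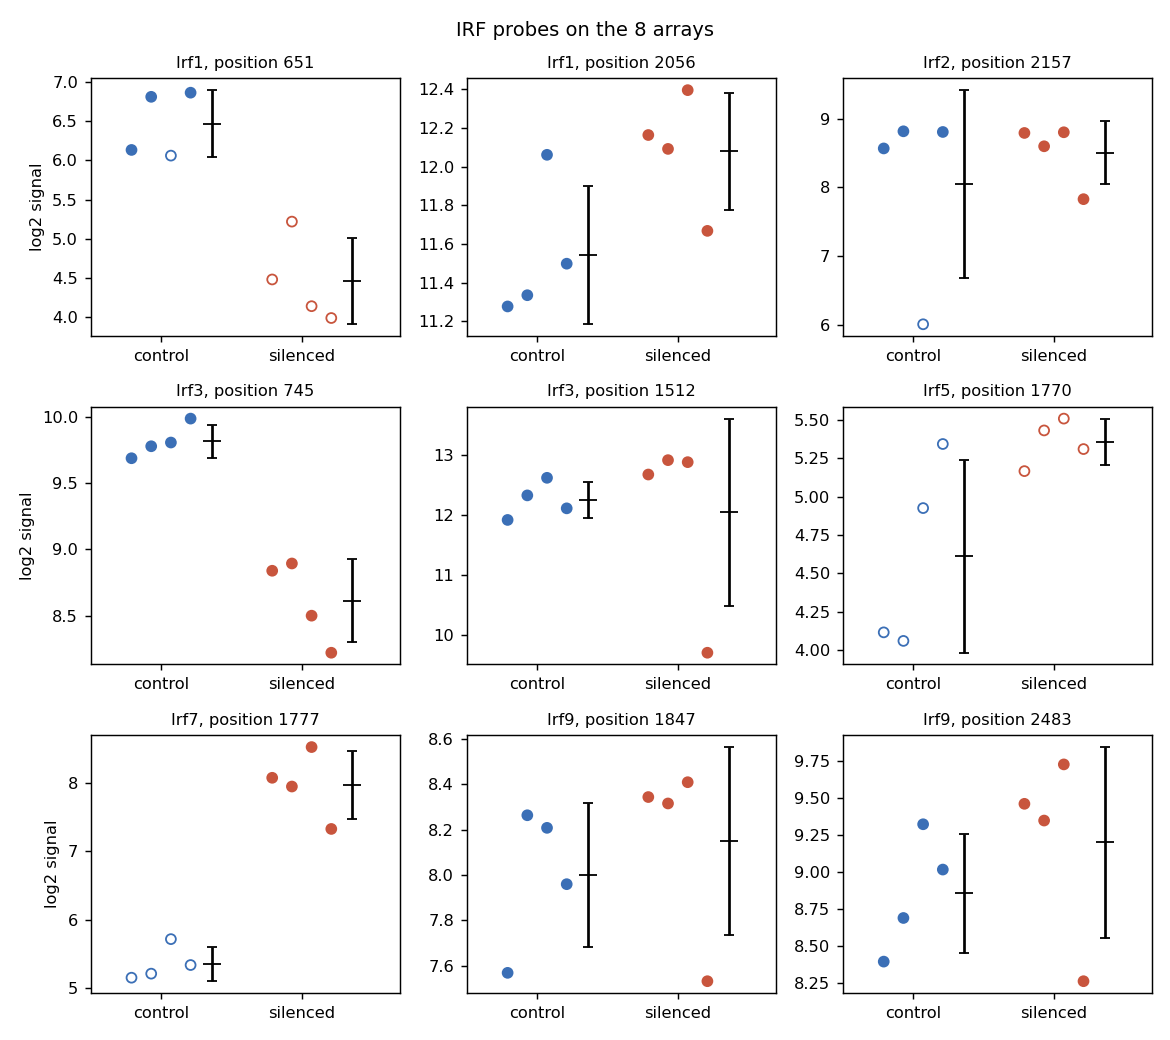
Log2 signal of the 9 tested interferon regulatory factor probes on each of the 8 arrays, control in blue and silenced in red, replicates 1 to 4 from left to right, with mean and SD beside them. Filled points were well above background and open points were not; the groups are separate for Irf7, Irf3 at position 745 and Irf1 at position 651, and silenced array 4 is the lowest silenced array in 8 of the 9 panels. That order depended on the masking of dim spots. Without the mask, silenced array 4 was the lowest silenced array at Irf3 position 1512 (10.38) and Irf9 position 2483 (9.11). It was then the highest at Irf3 position 745 (9.08), Irf5 (6.23) and Irf9 position 1847 (8.45), and neither at the other probes. Each panel has its own vertical axis, which does not start at 0.

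Irf9, the DNA-binding partner of Stat2, gave signal well above background on all 8 arrays at both of its probes on chromosome 14. At position 1847 (chr14:56228256-56228315) the log2 signal was 7.57, 8.26, 8.21 and 7.96 on control arrays and 8.34, 8.32, 8.41 and 7.53 on silenced arrays. Silenced array 4 again stood lowest, although without masking of dim spots it was the highest silenced array, at 8.45. The change was 0.15 (95% interval -0.44 to 0.74, limma adjusted p 0.727). At position 2483 of NM_001159417 the log2 signal was 8.40, 8.69, 9.32 and 9.02 against 9.46, 9.35, 9.73 and 8.26, with a change of 0.34 (95% interval -0.42 to 1.11, limma adjusted p 0.511). The interval at each Irf9 probe leaves room for a change in either direction. At a common 75th percentile both Irf9 probes were called higher, by 0.43 and 0.62.

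Irf2, which competes with Irf1 for the same DNA elements, was read at position 2157 (chr8:47932486-47932545). Its log2 signal was 8.57, 8.82, 6.01 and 8.81 on control arrays and 8.79, 8.60, 8.80 and 7.83 on silenced arrays. Control array 3 lay far below the other arrays and was the only array on which the probe was not well above background. The change was 0.46 (SE 0.59, limma adjusted p 0.624) with all arrays and -0.22 (limma adjusted p 0.59) without control array 3.

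Irf5, a factor downstream of Toll-like receptors, was positive and significant on all 8 arrays at position 1770 (chr6:29486901-29486960) but well above background on none. The log2 signal was 4.12, 4.06, 4.93 and 5.34 on control arrays and 5.17, 5.43, 5.51 and 5.31 on silenced arrays, so the groups overlapped through control array 4. The change was 0.74 (SE 0.30, unadjusted p 0.0346 and limma adjusted p 0.107). The other Irf5 probe was positive and significant on 3 of 4 control arrays and 0 of 4 silenced arrays, and never well above background.

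Irf4 and Irf8, the lymphoid and myeloid members, had 2 probes each, and on no array did any of these 4 stand well above background. The Irf4 probe at position 2346 was positive and significant on 2 control and 2 silenced arrays, and the Irf8 probe at position 3343 on 2 control and 3 silenced arrays. The second probe of each gene was positive on none. The Irf2 probe at position 882 was positive on 1 array of each group. These probes were too dim for a test.

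Whether probes of the same gene changed unequally was tested for the 3 genes with a pair of tested probes, by an exact two-sided permutation test of the log2 difference between the probes on each array. For Irf1, the probe at 651 fell relative to the probe at 2056 by 2.54 on the log2 scale (exact p 0.0286, adjusted over the 3 pairs 0.0857), and the groups did not overlap. The size of that shift rests on signal at 651 that was well above background on 0 of 4 silenced arrays, so the size is uncertain. At 651 itself only a bound holds, controls being higher by at least 1.23-fold. The smallest p that 4 against 4 arrays allow is 0.0286. With 3 pairs, an adjusted value under 0.05 would need more than 1 pair at that smallest p. For Irf3, the probe at 745 moved by -1.0 relative to the probe at 1512 (exact p 0.171, adjusted 0.257). Without silenced array 4, left out after its values were seen, the shift was -1.65 for Irf3 and -2.52 for Irf1, with no overlap in either (exact p 0.0286, adjusted 0.0429 for each). The adjusted value for Irf3, whose probes were both bright, thus depends on the Irf1 pair being counted with it. For Irf9 the shift was -0.19 (exact p 0.429). With all 8 arrays none of the 3 shifts passed after adjustment.

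The position of each probe on the array was examined after silenced array 4 had been seen to stand apart. On that array the Irf3 probe at 1512 differed from the mean of silenced arrays 1 to 3 by -3.12 on the log2 scale, where the median difference of all tested probes was -0.69. Of 69 tested probes within 10 rows and 5 columns of it, 56 (81.2%) were more than 2 log2 below the other silenced arrays. Among all tested probes this share was 2.30%. Around the other 8 interferon regulatory factor probes it was between 0% and 3.26%, so low signal on silenced array 4 was shared with the array neighbours of that Irf3 probe.

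**Figure D3:**
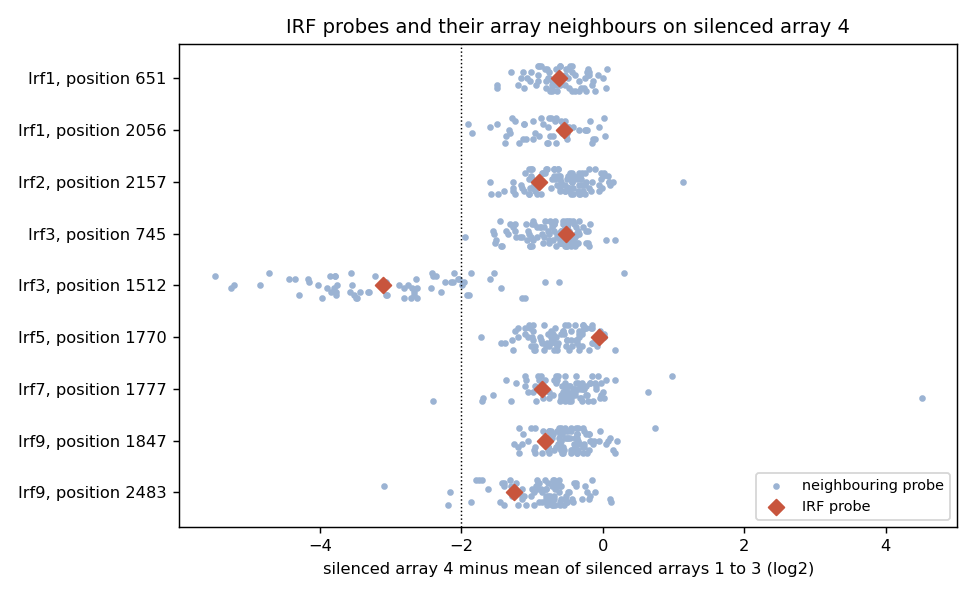
Log2 signal on silenced array 4 minus the mean of silenced arrays 1 to 3, for each tested interferon regulatory factor probe (red diamond) and the tested probes within 10 rows and 5 columns of it on the array (blue points); the dotted line marks -2. Around the Irf3 probe at position 1512, 56 of 69 neighbours lie below the line, and around the others no more than 3.26% do.

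The genes whose deviations from the group means were most like those of this Irf3 probe, among 25108 probes measured on all 8 arrays, were Ciz1 (r 0.999), Nxf3 (r 0.998) and Fcgr4 (r 0.998). All 3 probes were low on silenced array 4, with differences of -1.90, -3.77 and -3.32 from the other silenced arrays on the log2 scale, and they lay in rows 221, 203 and 176 and columns 89, 87 and 81 of the array, near row 202 and column 87 of the Irf3 probe. The likeness is a description over 8 arrays and was set mainly by that array.

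Processing was varied in 20 ways. The call for Irf3 at position 745 was kept in all 20, with changes between -1.29 and -0.92, and those for Irf7 and for Irf1 at position 651 in all 19 in which the probe could be tested. Without silenced array 4 and control array 3 together, the change was 2.96 for Irf7, -1.07 for Irf3 at 745 and -1.98 for Irf1 at 651, with limma adjusted p of 0.000219, 0.00261 and 0.00246.

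**Figure D4:**
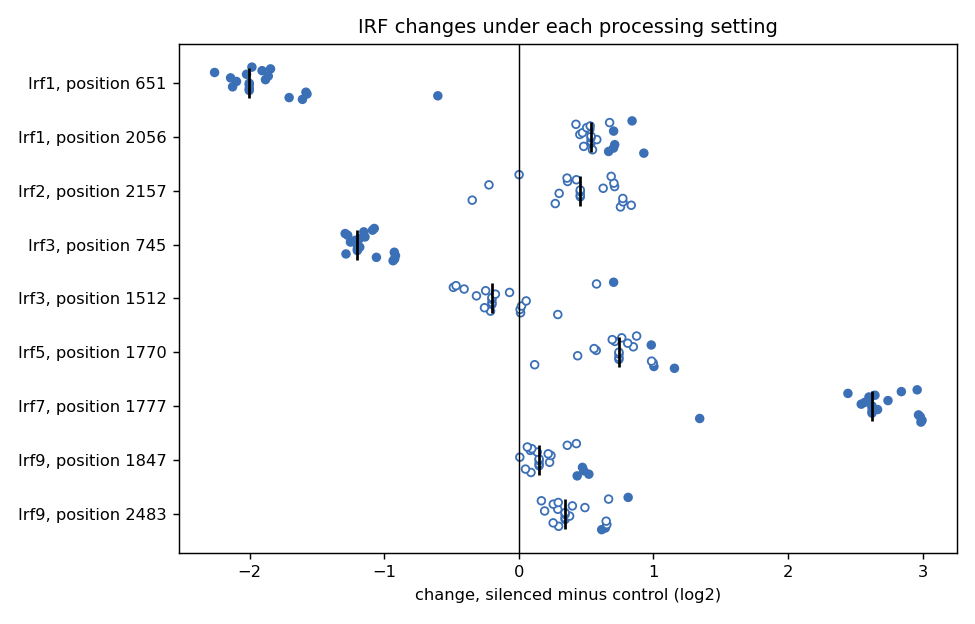
Change of each tested interferon regulatory factor probe, silenced minus control on the log2 scale, under each of the other processing settings (points, filled where called at a limma adjusted p, or that of the methods' t-test, under 0.05) beside the reported value (vertical bar). Irf7, Irf3 at position 745 and Irf1 at position 651 stay on their side of zero and are filled throughout; Irf3 at 1512 and Irf2 cross zero.

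Promoter windows of all 8 genes, 11 windows in all, were read from RefSeq on build GRCm38.p6, each from 250 bases before to 50 bases after a transcript start. The core of the interferon-stimulated response element, GAAANNGAAA on either strand, was in 1 of the 11 windows, that of Irf2 at -241, and in 3.44% of 32851 windows of all genes. The gamma-activated site, TTCNNNGAA, was in 3 of the 11 windows, those of Irf1 at -90, Irf2 at -224 and Irf8, and in 8.30% of all windows. The Irf7 window held neither string of letters. The 250 bases before the start are shown for Irf7 and Irf1, and for Isg15, a target gene, with the matches in capitals: the gamma-activated site in Irf1 (plus strand, chr11:53769764-53770013) and 3 overlapping response element cores in Isg15 at -78, -72 and -66 (minus strand, chr4:156200819-156201068). The Irf7 window lies on the minus strand at chr7:141266425-141266674. A second Irf1 start, whose 250 bases lie at chr11:53770223-53770472, held no match to either motif. Of the other target genes searched, the Rsad2 window held a response element core at -120, and those of Oasl1, Oasl2, Xaf1 and Ifi35 held none. Cores also lay in the windows of Stat2 (-222), Ddx58 (2) and Ifih1 (32), so 4 of these 8 other genes held one.
Irf7 promoter: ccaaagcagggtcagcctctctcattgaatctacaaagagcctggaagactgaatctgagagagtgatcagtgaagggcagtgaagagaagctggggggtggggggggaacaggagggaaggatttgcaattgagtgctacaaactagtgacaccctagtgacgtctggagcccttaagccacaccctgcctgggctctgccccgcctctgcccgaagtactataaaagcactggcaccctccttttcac
Irf1 promoter: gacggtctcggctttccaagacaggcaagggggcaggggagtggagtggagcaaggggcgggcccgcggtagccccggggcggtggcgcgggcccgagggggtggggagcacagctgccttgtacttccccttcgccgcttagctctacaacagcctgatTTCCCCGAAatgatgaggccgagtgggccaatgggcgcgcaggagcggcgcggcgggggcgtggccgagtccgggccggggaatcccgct
Isg15 promoter: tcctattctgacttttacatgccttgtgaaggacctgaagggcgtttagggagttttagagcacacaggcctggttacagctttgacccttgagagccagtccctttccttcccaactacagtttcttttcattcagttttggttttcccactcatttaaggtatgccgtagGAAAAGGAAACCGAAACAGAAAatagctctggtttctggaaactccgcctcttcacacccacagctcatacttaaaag

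Genes known for interferon response elements, listed from general knowledge and not from this search, were followed as the targets of these factors, each by its brightest tested probe. Of 56 listed genes, 54 were on the array and 32 could be tested. The others on the array, among them Mx1, Mx2, Oas2 and Ifit3, had too few values for a test. Of 32 tested genes, 9 rose and 0 fell (limma adjusted p under 0.05), beside 4.79% of all tested probes called higher and 18.4% lower. The median change was 0.61, against -0.19 over all tested probes, and at an unadjusted p under 0.05 there were 13 higher and 1 lower. The methods' t-test with Benjamini-Hochberg adjustment also called 9 higher and 0 lower. Isg15, a ubiquitin-like protein conjugated to other proteins in antiviral states, rose by 3.87 (SE 0.32, limma adjusted p 0.000241). Oasl1 and Oasl2, relatives of the antiviral oligoadenylate synthetases, rose by at least 12.3-fold and 2.51-fold at their brightest probes, which were not well above background on any control array. Under normexp their changes were 2.68 and 1.04 on the log2 scale, both below these bounds. A dimmer Oasl1 probe, well above background on 1 control array, rose by 1.99 (limma adjusted p 0.00564). Casp1, a protease of the inflammasome, rose by 2.25, the antiviral protein Rsad2 by at least 1.78-fold (0.73 on the log2 scale under normexp, below that bound) and the apoptosis factor Xaf1 by 1.37. Ifit1, the antiviral RNA-binding protein, and Cxcl10, a chemokine, could not be tested. The Ifit1 probe and the Cxcl10 probe at position 924 were well above background on all 4 silenced arrays and on 0 controls, at least 3.19-fold and 2.50-fold higher, while a Cxcl10 probe at position 1230 was positive and significant on 0 of 8 arrays.

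The list held 9 antigen presentation genes, of which 6 were tested and 1 was called. The immunoproteasome subunit Psmb10 rose by 1.13 (limma adjusted p 0.00724). The peptide transporter Tap1 was well above background on 3 of 4 silenced arrays and 0 of 4 control arrays, at least 1.65-fold higher and not tested. Psmb9, of the same complex, had a change of 0.71 (limma adjusted p 0.198) and was never well above background, and Psmb8 was too dim to test. Tap2 (0.62), Tapbp (0.06), Psme1 (-0.56) and Nlrc5 (0.36) were not called. B2m, the light chain of class I molecules, which was not on the list, had a change of 0.17 (limma adjusted p 0.636). At a common 75th percentile 19 of the 32 listed target genes were called higher and 0 lower, where 24.7% of all tested probes were called higher and 15.2% lower. Without silenced array 4 and control array 3 the counts were 15 and 0 of 31, where 19.8% of all probes were called higher and 25% lower. Over all 48 tested probes of the list, 13 were called higher and 2 lower.

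The summed level of liver markers moved in the same direction as the called targets, but single markers differed. Of 18, the number well above background on every array was 3 for control and 10 for silenced arrays. The log2 of their summed level was 10.37 to 11.06 in controls and 12.70 to 13.02 after silencing. Hpx, well above background on 2 control and 0 silenced arrays, had a change of -0.86. Apoc3 (-0.82) and Apoa2 (-0.15) also had negative changes, and none of these was called. Alb, Mup1, Serpina1a and Trf were well above background on all 4 silenced arrays and on 0 controls, while Apob, Apoa1, Apoc3 and Fga were so on no array. The log2 of the summed level of the leukocyte markers was 12.93 to 13.08 and 13.17 to 13.56, and their counts well above background on every array were 7 and 6. Epithelial markers summed to 9.87 to 10.74 in controls and 10.77 to 10.92 after silencing, with Krt8 well above background on 0 control and 3 silenced arrays and 4 of 7 markers so on no array. Myoblast markers summed to 17.67 to 17.82 and 17.28 to 17.59. The part of these markers in the changes of the interferon genes and of Irf7 was not tested, and a change in the number of cells of a type cannot be told apart from a change in RNA per cell in these cultures.

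Among interferon ligands, 0 of 7 tested genes rose and 0 fell in limma at an adjusted p under 0.05 or by the methods' t-test, and 1 was lower at an unadjusted p under 0.05 in each. Without silenced array 4 and control array 3 together, 3 of the 7 were called lower, where 25% of all tested probes were, beside 18.4% with all arrays. Ifnb1, the main type I interferon of non-immune cells and a target of Irf3 and Irf7, had a change of 0.18 (limma adjusted p 0.825) and was well above background on 1 silenced array and 0 control arrays. Ifna14 and Ifnab were so on no array, Ifna1 on 1 control array, and Ifna5 and Ifna9 on 2 control arrays each. Only Ifnl3 was so on most arrays, 4 control and 3 silenced. Of 19 listed ligands 15 were on the array, and those not tested had too few values. The lack of calls therefore does not show that the ligands were unchanged.

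Of 17 tested genes for interferon receptors and JAK-STAT signalling, 3 rose and 2 fell at their brightest probe, while over all 31 tested probes of the list 4 were called higher and 6 lower. Of all tested probes on the array 4.79% were called higher and 18.4% lower. Stat2, the partner of Irf9, rose by 1.01 (limma adjusted p 0.0174), the interferon-gamma receptor chain Ifngr1 by 0.69 and Stat3 by 0.68, although a dimmer Stat3 probe was called lower, by at least 1.61-fold, being well above background on 3 control and 0 silenced arrays. The kinase Tyk2 had a change of -0.95 and was called lower. Ifnar2 and Ifngr2 had changes of 0.50 and 0.14, and the brightest probe of Ifnar1 one of -0.82, none of them called, although another Ifnar1 probe was called higher by 1.25. With the slide row as a block in limma, 0 of these 17 genes were called and 5 had an unadjusted p under 0.05, and the methods' t-test called 2 of the 17. The block called 1.86% of all tested probes higher and 8.98% lower, and the methods' t-test 1.98% and 9.96%.

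Of 28 tested kinases, adaptors and sensors that lie upstream of these factors, 3 rose and 4 fell, and over all 48 tested probes of the list 3 were called higher and 8 lower, beside the same 4.79% and 18.4% of all probes. The cytosolic RNA sensors Ifih1 and Ddx58 rose, by at least 1.60-fold and by 1.29 on the log2 scale, and so did the adaptor Tmem173 (STING) by 0.95. Under normexp the Ifih1 change was 0.64 on the log2 scale, below its bound. The groups overlapped for Ifih1 and Ddx58 (exact permutation p 0.0571 for each), and with the slide row as a block or by the methods' t-test 1 gene of this list was called higher and 3 lower, with Ifih1 and Ddx58 not called in either. Tbk1, the kinase that phosphorylates Irf3 and Irf7, averaged a log2 signal of 10.76 ± 0.20 in the 4 controls and 9.75 ± 0.25 (mean ± SD) in the 4 silenced cultures, a change of -1.01 (limma adjusted p 0.00847). Its relative Ikbke was called lower (limma adjusted p 0.00657), but it was well above background on 1 control array and 0 silenced arrays, and no fold could be bounded. Irak2, a kinase of Toll-like receptor signalling, was called lower (-1.67). The adaptors Mavs and Myd88 had changes of 0.40 and -0.43, neither called.

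Of 20 tested partners and regulators of these factors, 2 rose and 4 fell at their brightest probe, and over all 39 tested probes of the list 2 were called higher and 14 lower, again beside 4.79% and 18.4% of all probes. Irf2bp1, a corepressor that binds Irf2, had the widest change, -2.85 (SE 0.41, limma adjusted p 0.00182). Its relative Irf2bp2 had a change of 0.08 (limma adjusted p 0.952). Irf2bpl was called higher at its brightest probe (0.70) and lower at the probe at position 3153 (-1.54), so its direction differed by probe. The coactivator Crebbp was called lower (-1.31), as were the ubiquitin ligase Stub1 (-1.21) and the signalosome subunit Cops8 (-0.83), and Def6 was called higher (0.76). Blocking on slide row, limma called 0 higher and 3 lower here (3 and 4 at an unadjusted p under 0.05), and the methods' t-test 0 and 4 (4 and 6 unadjusted), where the shares of all probes called were again 1.86% and 8.98%, and 1.98% and 9.96%. Def6 and Cops8 were called in neither, and of 20 alternatives they lost their call in 10 and 14.

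Over all 5 lists, 17 of 104 tested genes (by their brightest probe) were called higher and 10 lower, with a median change of -0.02. The split depended on the scaling, with 40 higher and 8 lower at a common 75th percentile and 44 higher and 7 lower of 145 genes without masking of dim spots. Among all probes, 79.3% of calls were lower as reported and 38.2% at a common 75th percentile.

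**Figure D5:**
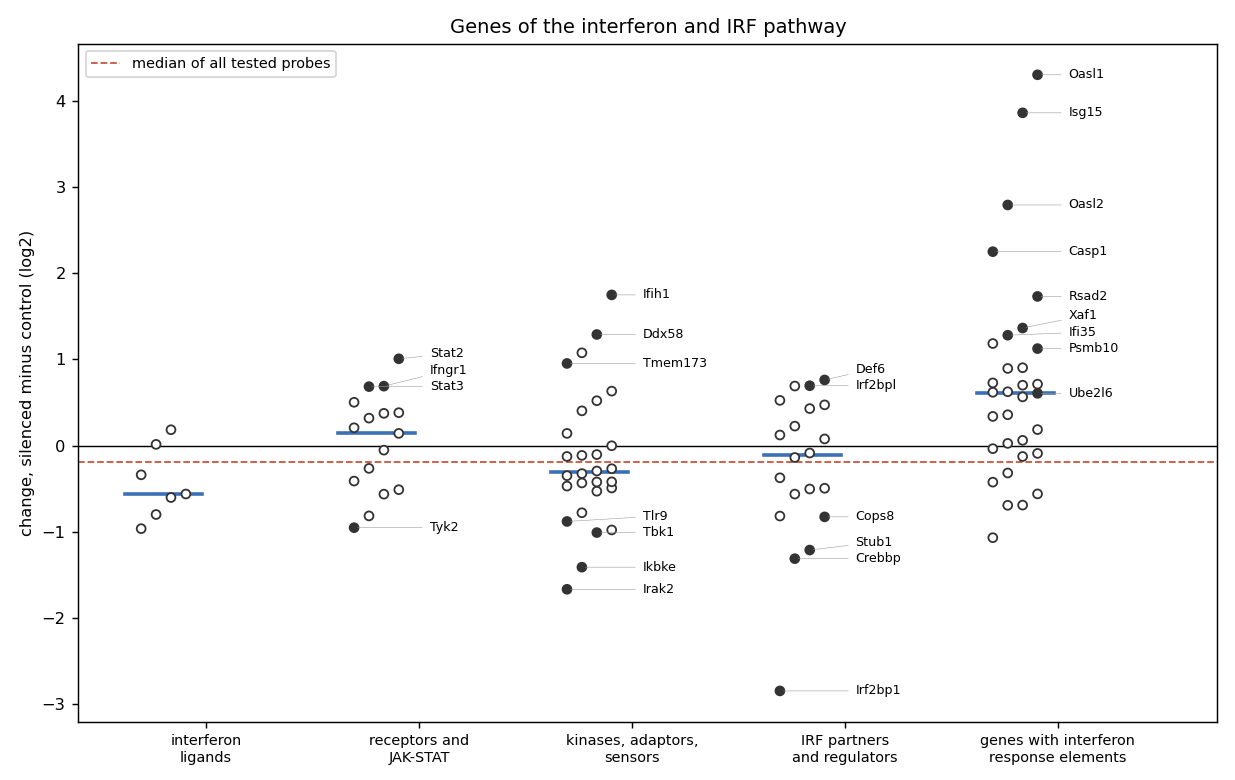
Change of the tested genes of the 5 interferon and IRF pathway lists, silenced minus control on the log2 scale, by its brightest tested probe. Filled points passed the test and are named; blue bars are list medians and the dashed line is the median of all tested probes, -0.19. All 9 called genes with interferon response elements lie above zero, and called genes of the other lists except the ligands lie on both sides.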

How the data were processed

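RNA of 8 C2C12 cultures, 4 control and 4 Pvt1-silenced by GEO's labels, was measured on 8 one-colour arrays on 1 slide in 1 scan. The authors deposited scanner files of spot intensity on a linear scale, which per the file headers came from Feature Extraction 12.0.0.7 after background subtraction, while the submitters' notes name Agilent Feature Extraction 10.7.3.1. They also deposited a series table of processed intensity values, used as an alternative. The detection and outlier flags, other units of 0 or 1, were taken from the deposited files.

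From the intensity the authors deposited, log2 values were computed here, with spots not positive and significant set to missing as in the study's methods. Outlier-flagged spots and control spots were removed. Values were quantile normalized and spots of each probe averaged (56605 probes from 59305 spots), and 28649 probes had 3 or more of 4 values in both groups. Their group difference was estimated by limma 3.58.1 in R 4.3.3 (lmFit, eBayes), with no other term and Benjamini-Hochberg adjustment at 0.05. The labels call the 4 samples of a group biological replicates.

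Where all 4 arrays of a group failed to reach well above background, the fold is a lower bound. It sets the other group's mean against the mean, over the dim arrays, of whichever was higher: the probe's own signal or the least signal that any probe well above background had there. Positions are those of the array design, coordinates those of the files (mm9), and exon or UTR annotation of that build was not analysed here. All 16 member probes were named. In each pathway list up to 6 called genes with the largest change were named, besides a fixed set of genes, of which 1 is counted in its list but not reported here. The promoters outside the family, the antigen presentation genes beyond the fixed ones, the named markers and the array surroundings were chosen after values were seen. The members and lists were chosen with earlier results of these data known.

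Alternatives were the 75th percentile, cyclic loess, normexp (offset 50), the series table, a stricter and no mask, complete probes, replicate and slide row blocks, a robust trended prior, the methods' t-test and leaving out arrays. Leaving out control replicate 3 and silenced replicate 4 together and, for shifts between probes, each array in turn, were added after seeing the data. On simulated data for this comparison over 28649 probes, the fit recovered 30 of 50 probes raised by 2 log2 and 3 of 50 raised by 1 log2. The number of arrays limits the precision. Figures were drawn with matplotlib 3.10.9.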

Additional observations from a re-analysis of the deposited data

Results flagged for a closer look

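In 3 of 20 groups of 4 arrays examined, 1 array stood apart from the others of its group by Dixon's criterion, which chance meets in about 1 group in 20. For the Irf2 probe at position 2157, control replicate 3 had a log2 signal of 6.01 and the other controls 8.57 to 8.82. For the Irf3 probe at position 1512, silenced replicate 4 had 9.71 and the other silenced arrays 12.67 to 12.91. For the Irf9 probe at position 1847, silenced replicate 4 had 7.53 and the other silenced arrays 8.32 to 8.41. Without masking of dim spots, silenced replicate 4 had 8.45 at that Irf9 probe and the other silenced arrays 8.25 to 8.28. The low values at the Irf2 and Irf3 probes remained without the mask, at 5.83 and 10.38.

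A signal also appeared outside the tested probes: the Irf7 probe at position 796 was well above background on silenced replicate 2 alone, at a log2 signal of 7.14, and on no control array.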

How the results depend on the processing

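With 3 of 9 interferon regulatory factor probes called, the 75th percentile and cyclic loess each gave 7 of 9, the series table and no mask each 5 of 16, the stricter mask 1 of 6, and leaving out both arrays that stood apart 6 of 9. Of all tested probes, 23.2% were called as reported and 39.9%, 37.3%, 19.6%, 17.3% and 44.7% in these settings in turn, other than the stricter mask, which called 5.66% higher and 24.4% lower. Under the stricter mask Irf7 and Irf1 at position 651 had too few values for a test. Leaving out each array in turn gave 3 to 4, where 13.5% to 31.1% of all tested probes were called. The Irf3 probe at position 1512 reversed to 0.29 at the 75th percentile, 0.0127 under cyclic loess, 0.00902 in the series table, 0.0197 without a mask, 0.0543 under a slide row block, 0.58 without silenced replicate 4 and 0.70 without both arrays. The Irf2 probe at position 2157 reversed to -0.35 under the stricter mask and -0.22 without control replicate 3. Leaving out 1 array gave -0.49 to 0.58 for that Irf3 probe and -0.22 to 0.71 for that Irf2 probe. The cause was not tested.

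Of the pathway genes, 27 were called, and 48 at the 75th percentile, 44 under cyclic loess, 51 in the series table and 51 without a mask, 15 under a slide row block and 57 without both arrays. Leaving out 1 array gave 15 (without control replicate 2 or 4) to 41 (without silenced replicate 4). Of all tested probes, 13.8% were called without control replicate 2, 13.5% without control replicate 4 and 31.1% without silenced replicate 4. The share was 10.8% under the slide row block and 23.2% as reported. Of the 27 calls, 13 were kept in every alternative in which the probe was tested, among them Isg15, Oasl1, Tbk1 and Irak2. The other 14, which include Stat2, Stat3, Ifngr1, Ifih1, Ddx58, Ikbke, Def6, Cops8 and Irf2bpl, were lost in 1 or more. The Pvt1 call was kept in all 19 alternatives that held its probe, with changes of -3.12 to -2.69 on leaving out an array. Leaving out 1 array gave shifts between probes of -1.65 (without silenced replicate 4) to -0.68 for Irf3, -2.85 to -2.33 for Irf1 and -0.30 to -0.05 for Irf9. Only without silenced replicate 4 did a shift pass adjustment, for Irf3 and Irf1. Interferon ligands had 0 to 2 genes called on leaving out 1 array (2 without control replicate 3) and 1 under cyclic loess. The methods' t-test gave 3 member probes both unadjusted at 0.05 and after Benjamini-Hochberg.

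The replicate numbers were not treated as pairs: same-numbered arrays correlated at -0.02, 0.15, 0.20 and 0.06 in their deviations. Control replicates 2 and 3 correlated best with the silenced replicate of their own number. Control replicate 1 correlated best with silenced replicate 4 (0.10), and control replicate 4 with silenced replicate 2 (0.10). With the replicate number as a block, 3 member probes and 19 pathway genes were called, where 17.5% of all tested probes were called. The Irf7 change was 2.62 and the Pvt1 change -2.86.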
